A study of Mus musculus with 6 samples.

Results

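Interferon regulatory factors (IRFs) are transcription factors that switch on interferon genes and the genes that interferons induce. The chromatin at the promoters of 8 of them, Irf1, Irf2, Irf3, Irf4, Irf5, Irf7, Irf8 and Irf9, was compared between mouse colonic organoids grown without and with TNFα. The genes were taken as a list by symbol and not by a threshold on a measured value, and all 8 were found among the 55341 symbols of the GENCODE annotation of GRCm38, of which 21923 are protein-coding genes.

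Organoids are cultures of epithelium that grow from isolated crypts embedded in a matrix. Here they came from the colon of C57BL/6 mice with no engineered allele named in the labels, and were kept in one medium, left untreated (wt) or given TNFα at 40 ng/ml during 3 weeks (wt+TNFα). Chromatin immunoprecipitation and sequencing (ChIP-seq) was performed for H3K4me3, with narrow peaks, and for H3K27me3, with broad peaks, at a planned depth of 40000000 reads for H3K4me3 and 60000000 for H3K27me3. Each condition had 1 library per mark and 1 input, so differences between the conditions have no replicate check and are given without p-values or errors.

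IRFs share a DNA-binding domain that recognizes the interferon-stimulated response element (ISRE). Irf3 and Irf7 act downstream of sensors of viral nucleic acids and induce interferon genes, Irf9 is the DNA-binding part of the complex that answers type I interferon, Irf1 activates and Irf2 opposes many of the same targets, Irf5 acts downstream of Toll-like receptors, and Irf4 and Irf8 are best known from lymphoid and myeloid cells. H3K4me3 marks promoters that are active or poised, and H3K27me3 is deposited by Polycomb complexes at silenced genes. Promoters that carry both marks are often called bivalent.

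A promoter was taken as 1000 bp on each side of every annotated transcript start of a gene, and a peak was assigned to it with an overlap of at least 1 bp. In both conditions 6 of the 8 IRF genes carried H3K4me3 alone (Irf1, Irf2, Irf3, Irf7, Irf8 and Irf9), Irf5 carried both marks, and Irf4 carried H3K27me3 alone. No member changed its state between wt and wt+TNFα. H3K4me3 peaks were therefore present at 7 of 8 members in wt and 7 of 8 in wt+TNFα, where 50.5% and 51.2% of protein-coding genes had one. H3K27me3 peaks were present at 2 of 8 members in each condition, beside 21.7% of protein-coding genes in wt and 29.5% in wt+TNFα. What differed between the conditions was how far the peaks reached and how strong they were: Irf5 had a wider H3K4me3 peak and a narrower H3K27me3 peak in wt+TNFα, Irf8 had a narrower H3K4me3 peak, Irf7 a stronger one of the same width, and Irf4 lay in a much wider H3K27me3 peak.

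**Figure D1:**
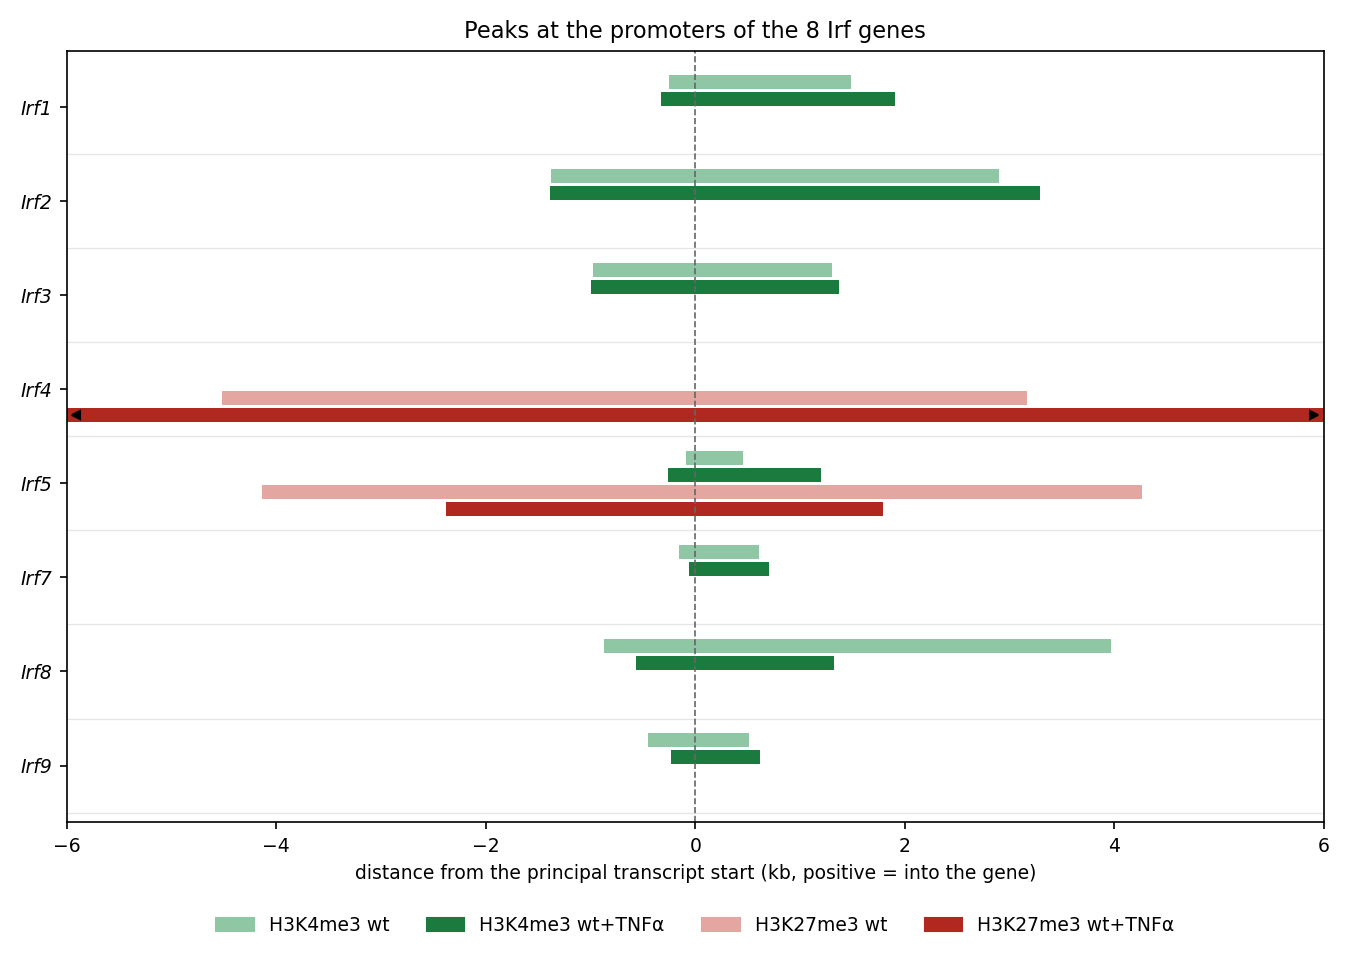
Peaks at the promoters of the 8 IRF genes, with 1 row of bars per peak list (light green, H3K4me3 wt; dark green, H3K4me3 wt+TNFα; light red, H3K27me3 wt; dark red, H3K27me3 wt+TNFα) and the distance from the principal transcript start in kb on the x axis, positive into the gene. The H3K4me3 peak of Irf8 reaches 3966 bp into the gene in wt and 1326 bp in wt+TNFα, and the wt+TNFα H3K27me3 peak of Irf4 (46390 bp, arrowheads) runs past both ends of the axis.

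The upstream sequences show what kind of promoter each mark was found on. The 300-base window from 250 bases before to 50 bases after a start in RefSeq (GRCm38.p6) was available for all 8 members, in 11 windows, and 4 sets of letters were searched on both strands: the ISRE core GAAANNGAA, the interferon-γ-activated site (GAS, bound by STAT proteins) TTCNNNGAA, the κB consensus bound by NF-κB (the factor that TNFα activates), and the TATA box TATAAA. Of 21255 windows of protein-coding genes, 8.15% held the ISRE core, 7.69% the GAS, 4.81% the κB consensus and 12.6% the TATA box. The 250 bases before the first RefSeq start are printed for the members with a match and for Irf5, the member with both marks, with the matched letters in capitals.

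Irf1 (chr11:53769764-53770013, + strand): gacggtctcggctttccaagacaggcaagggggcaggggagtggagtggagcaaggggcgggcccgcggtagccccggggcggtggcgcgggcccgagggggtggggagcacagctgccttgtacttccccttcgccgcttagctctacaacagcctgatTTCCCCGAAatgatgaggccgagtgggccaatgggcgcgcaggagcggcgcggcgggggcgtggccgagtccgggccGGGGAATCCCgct
Irf2 (chr8:46739495-46739744, + strand): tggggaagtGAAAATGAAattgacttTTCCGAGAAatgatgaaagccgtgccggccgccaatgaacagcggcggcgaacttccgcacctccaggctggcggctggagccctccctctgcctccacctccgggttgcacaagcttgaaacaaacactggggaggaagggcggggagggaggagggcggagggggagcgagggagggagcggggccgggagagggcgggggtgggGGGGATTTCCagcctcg
Irf4 (chr13:30748983-30749232, + strand): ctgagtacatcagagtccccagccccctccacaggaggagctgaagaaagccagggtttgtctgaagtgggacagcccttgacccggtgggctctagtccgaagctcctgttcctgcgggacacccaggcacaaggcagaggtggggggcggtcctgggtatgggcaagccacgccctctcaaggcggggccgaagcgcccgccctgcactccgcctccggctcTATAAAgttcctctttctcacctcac
Irf5 (chr6:29526375-29526624, + strand): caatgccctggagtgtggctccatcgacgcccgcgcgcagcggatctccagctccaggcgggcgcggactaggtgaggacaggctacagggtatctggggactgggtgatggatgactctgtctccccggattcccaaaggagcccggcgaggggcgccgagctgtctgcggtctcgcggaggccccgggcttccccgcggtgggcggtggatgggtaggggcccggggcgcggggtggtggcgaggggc
Irf7 (chr7:141266425-141266674, − strand): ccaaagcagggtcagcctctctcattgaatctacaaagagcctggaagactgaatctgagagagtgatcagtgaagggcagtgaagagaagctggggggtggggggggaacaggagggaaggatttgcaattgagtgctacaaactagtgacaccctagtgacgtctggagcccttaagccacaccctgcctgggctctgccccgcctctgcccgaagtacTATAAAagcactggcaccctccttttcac
Irf8 (chr8:120736108-120736357, + strand): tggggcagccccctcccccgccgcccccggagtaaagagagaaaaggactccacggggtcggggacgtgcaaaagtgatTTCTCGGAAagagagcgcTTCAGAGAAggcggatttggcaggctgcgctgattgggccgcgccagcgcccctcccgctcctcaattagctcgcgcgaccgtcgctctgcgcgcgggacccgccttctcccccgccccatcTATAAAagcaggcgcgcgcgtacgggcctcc

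Irf1 held a GAS that begins 90 bases before the start and a κB match that begins 13 bases before it. Irf2 held an ISRE core at 241 bases, a GAS at 224 bases and a κB match at 17 bases before its start. Irf8 held a GAS at 171 bases, another at 153 bases and a TATA box at 31 bases. Irf4 and Irf7 held a TATA box alone, at 26 and 29 bases, and in Irf3, Irf5 and Irf9 none of these letters were in the windows. Every match of Irf1, Irf2, Irf7 and Irf8 lay inside the H3K4me3 peak of both conditions, and that of Irf4 inside the H3K27me3 peak of both. A match of letters is a description and does not show that a factor binds there.

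The windows also differed in base composition. Over all protein-coding windows the median GC content was 56.3% and the median ratio of observed to expected CpG was 0.567. The first windows of Irf5 (74.7% GC, ratio 0.889), Irf8 (70.0%, 1.03) and Irf1 (69.3%, 0.912) were rich in CpG, and those of Irf2 (62.7%, 0.673) and Irf3 (58.3%, 0.712) were above both medians. Irf4 (61.0%, 0.398), Irf9 (55.3%, 0.392) and Irf7 (55.0%, 0.310) had fewer CpG than the median, although Irf7 and Irf9 carried H3K4me3 in both conditions.

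Peaks are described here by their width, by the share of promoter bases they cover, by their fold enrichment and by the −log10 of their q-value (the p-value adjusted for the many positions tested). Fold enrichment compares the ChIP signal with a local background estimated from the input, at the summit of a narrow peak and as a mean over a broad peak. Each library has its own background, so a member's ratio between conditions was read beside that of all peaks that match one to one. Over 10953 such H3K4me3 pairs the median ratio of wt+TNFα to wt was 1.07 for width, with 95% of pairs between 0.763 and 1.75, and 1.07 for fold enrichment, between 0.609 and 2.05. Bases under a peak of wt+TNFα and no peak of wt are called gained, and the reverse lost.

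At least 1 promoter base of H3K4me3 was gained at 5 of the 8 members (Irf1, Irf3, Irf5, Irf7 and Irf9), where 40.9% of protein-coding genes gained some. At least 1 was lost at 3 members (Irf7, Irf8 and Irf9), where 21.1% of protein-coding genes lost some. These are shifts of a peak's edge. The median gain over protein-coding genes was 113 bp and the median loss 51 bp. With an overlap of at least 200 bp the members left were Irf5 for gains and Irf8 and Irf9 for losses. Of the 8972 protein-coding genes with a gain, 26.0% reached 200 bp, as did 11.8% of the 4633 with a loss. When whole peaks were subtracted in place of bases, no member gained or lost either mark, because every member peak overlapped a peak of the other condition.

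**Figure D2:**
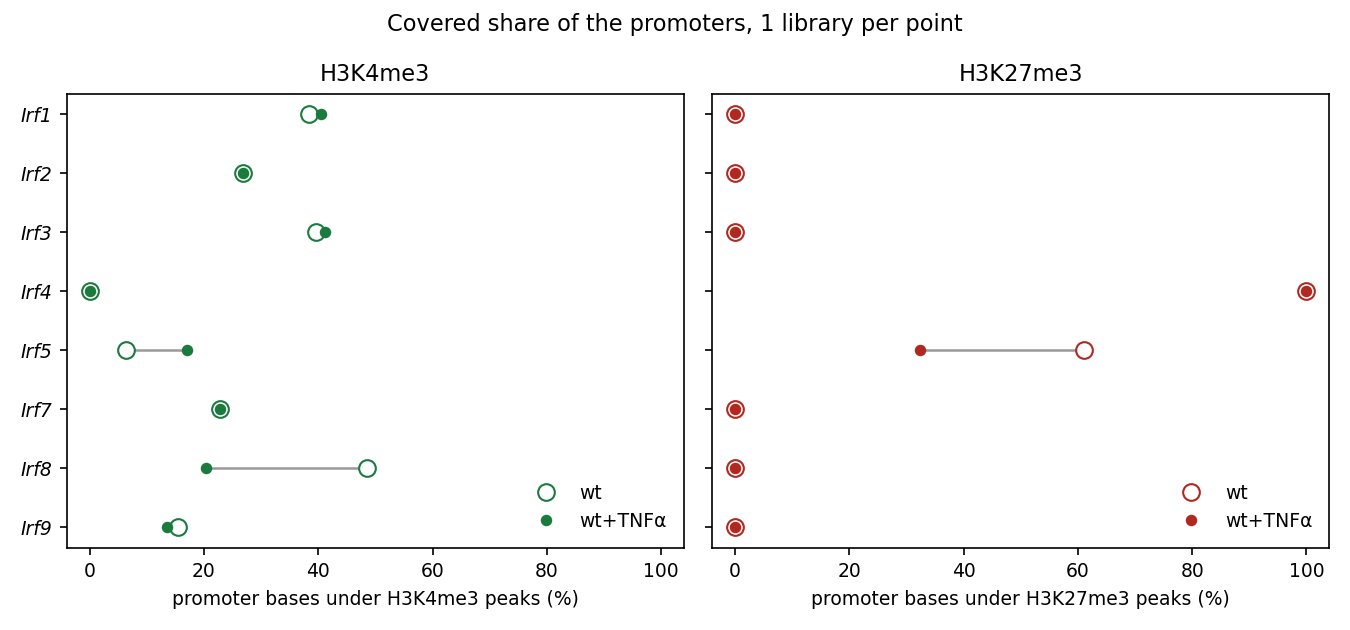
Percent of the promoter bases of each IRF gene under H3K4me3 peaks (left) and H3K27me3 peaks (right), from 1 library per point, with open circles for wt and filled circles for wt+TNFα. Irf5 (61.1% to 32.4% under H3K27me3) and Irf8 (48.6% to 20.4% under H3K4me3) stand out, and the circles of most other members lie on each other.

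Irf5 (chr6:29526625-29541871, + strand), which acts in Toll-like receptor signaling through MyD88 and is known mainly from macrophages and dendritic cells, was the member where both marks differed. Its H3K4me3 peak was 549 bp wide in wt (chr6:29526533-29527081) and 1463 bp in wt+TNFα (chr6:29526363-29527825). The fold enrichment of the peak was 8.21 in wt and 16.6 in wt+TNFα, with −log10 q of 24.2 and 97.9. In wt it was among the weakest and narrowest of its list, narrower than all but 6.90% and lower in fold enrichment than all but 10.7% of the peaks, and in wt+TNFα it was near the middle in width (wider than 47.6%) and still in the lower part by fold enrichment (higher than 27.4%).

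The ratio of the widths was 2.66, and 0.520% of matched pairs had a higher one. The ratio of the fold enrichments was 2.02, which 2.68% of pairs exceeded, and in 61 pairs (0.557%) both were at least 2. The peak grew on both sides of the start, by 170 bp upstream and by 744 bp downstream in an intron, so 914 promoter bases were gained, more than at all but 1.73% of the protein-coding genes with a gain. Upstream, 92 of the 250 printed bases lay under the wt peak and all 250 under the wt+TNFα peak. In both conditions the starts of Irf5-201 and Irf5-205 were the ones inside the peak. H3K4me3 covered 6.37% of all promoter bases in wt and 17.0% in wt+TNFα, and 27.4% and 63.1% of the promoter of the principal start alone.

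H3K27me3 at Irf5 went the other way. The broad peak was 8405 bp wide in wt (chr6:29522490-29530894), with a fold enrichment of 3.39 and −log10 q of 6.42, and 4178 bp in wt+TNFα (chr6:29524242-29528419), with 2.18 and 2.55. Both edges were nearer to the start: the peak reached 4135 bp upstream and 4269 bp downstream in wt, and 2383 bp and 1794 bp in wt+TNFα. The ratio of the fold enrichments was 0.643, and 0.214% of the 13109 H3K27me3 pairs that match one to one had a lower one. The ratio of the widths was 0.497, beside a median of 1.87 over those pairs, and 4.41% of pairs had a lower one, so it lay within the range of 0.363 to 14.9 that holds 95% of pairs.

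Within the promoters, 2475 bp of H3K27me3 were lost (chr6:29528420-29530894), of which 2273 bp are intronic and 202 bp exonic. The stretch holds the start of the coding transcript Irf5-202, which lay under H3K27me3 in wt alone. Irf5 was the 1 member of 8 with any H3K27me3 lost from its promoters, where 5.22% of protein-coding genes lost some, and 4.28% of those lost more. The covered share of all promoters was 61.1% in wt and 32.4% in wt+TNFα. A larger drop was seen at 0.976% of protein-coding genes. The gene body was covered to 28.0% and 11.8%. The promoter of the principal start stayed fully covered, at 100% in both conditions, so the difference lies at the downstream starts.

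All H3K4me3 bases of Irf5 lay under H3K27me3 in both conditions, 549 of 549 bp in wt and 1463 of 1463 bp in wt+TNFα. Among the 1135 protein-coding genes with both marks in wt (5.18%), 290 (25.6%) had a higher covered share of H3K4me3 and a lower one of H3K27me3 in wt+TNFα. By at least 10 points for each mark this held for 62 genes (5.46%), Irf5 being one of them. Irf5 passed this limit narrowly (10.6 points for H3K4me3), and under it fell the H3K4me3 difference with promoters of 500 bp (6.94 points) or 2000 bp (7.24 points) on each side and with the stronger peaks alone (0), and the H3K27me3 difference with 1 start per gene (0). Summed over the genome, the H3K27me3 lists spanned 102 Mb (wt) and 303 Mb (wt+TNFα), with 101 and 228 Mb on the autosomes, where all 8 members lie. The narrower peak at Irf5 was thus read from the list that spans more of the genome. On chromosome X the lists spanned 0.597 Mb (wt) and 74.7 Mb (wt+TNFα), so the cultures or libraries also differed there, and this difference and the treatment cannot be told apart with 1 library per condition.

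Irf8 (chr8:120736358-120756694, + strand), a partner of the myeloid factor PU.1, had the largest difference of the 8 members in the H3K4me3 share of all promoter bases. With the principal start alone, the difference was larger at Irf5. Its peak was 4840 bp wide in wt (chr8:120735485-120740324) and 1894 bp in wt+TNFα (chr8:120735791-120737684). The fold enrichment was 21.7 in wt and 21.7 in wt+TNFα, with −log10 q of 136 and 116, and the summits lay 446 and 467 bp after the start. The peak thus had the same fold enrichment with its summit at nearly the same place, and a different reach. In wt it was wider than 99.2% of the peaks of its list, and in wt+TNFα wider than 67.8%.

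The ratio of the widths was 0.391, and 0.128% of the matched pairs had a lower one, while the ratio of the fold enrichments was 1.00. Of the lost bases, 306 bp lie upstream of the gene and 2640 bp within it (chr8:120737685-120740324), with 1544 bp intronic and 1096 bp exonic, 174 bp of them coding. The start of the coding transcript Irf8-205 lies in this stretch and was under H3K4me3 in wt alone, and the starts of Irf8-201, Irf8-204, Irf8-206 and Irf8-207 were covered in both conditions. Of the promoter bases 2261 bp were lost, and 0.0216% of the 4633 protein-coding genes with a loss lost more.

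H3K4me3 covered 48.6% of the promoter bases of Irf8 in wt and 20.4% in wt+TNFα. A larger drop was seen at 0.182% of protein-coding genes. How large the drop appears depends on the starts counted. It was from 93.7% to 78.4% for the principal start alone and from 96.8% to 40.7% for the starts of protein-coding transcripts alone. Of the gene body, 19.5% was covered in wt and 6.53% in wt+TNFα. The lists give no level for bases outside peaks, so how far the signal differed over the lost stretch was not measured. No H3K27me3 peak lay on Irf8 in either condition, and the nearest was 35.0 kb from its principal start in wt and 24.2 kb in wt+TNFα.

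**Figure D3:**
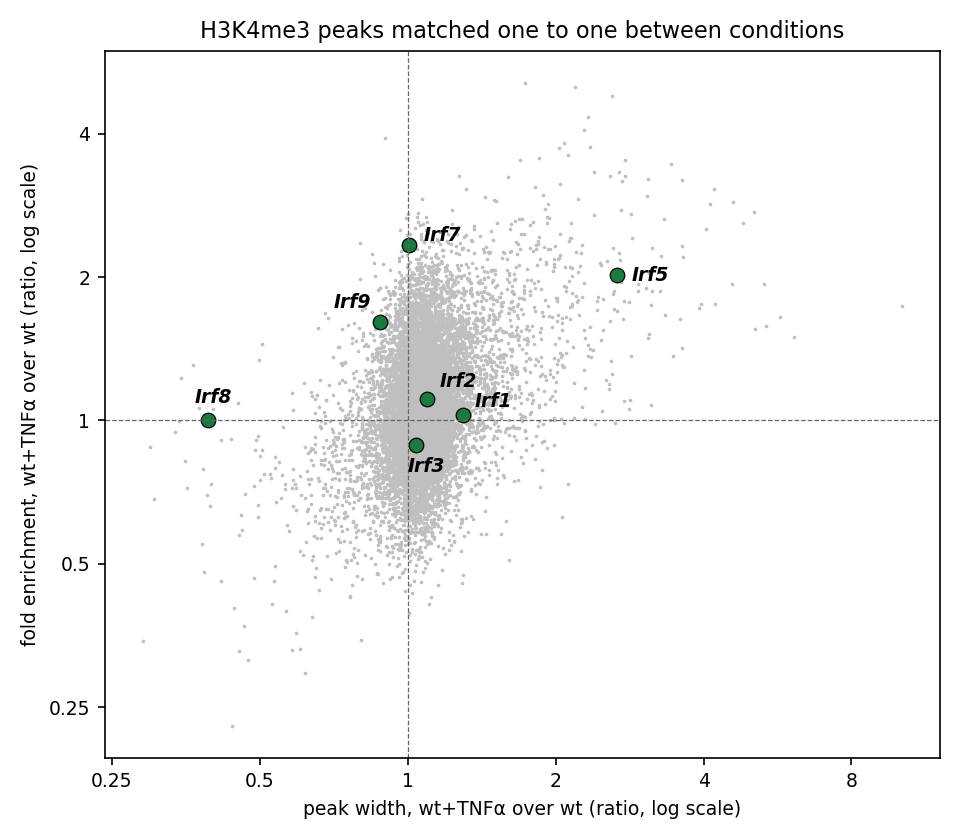
Ratio of wt+TNFα to wt for the width (x axis, log scale) and the fold enrichment (y axis, log scale) of the 10953 H3K4me3 peaks that match one to one (gray points), with the 7 IRF genes that have a peak as green points. Irf5 lies far to the right (width ratio 2.66), Irf8 far to the left (0.391) at a fold enrichment ratio of 1.00, and Irf7 high (2.34) at a width ratio of 1.00.

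Irf7 (chr7:141262706-141266481, − strand), the factor that amplifies the type I interferon response and is itself induced by interferon, had the largest ratio of H3K4me3 fold enrichments. The peak was 762 bp wide in wt (chr7:141265877-141266638) and 765 bp in wt+TNFα (chr7:141265779-141266543), and its fold enrichment was 10.6 in wt and 24.7 in wt+TNFα, with −log10 q of 72.6 and 139. The ratio of 2.34 was exceeded by 1.10% of the matched pairs. It came with a width ratio of 1.00, and a fold enrichment at least 2 times higher at a width ratio within 0.1 of 1 was seen in 70 pairs (0.639%).

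The Irf7 peak was shifted toward the gene: it began 157 bp before the principal start in wt and 62 bp before it in wt+TNFα, and ended 604 bp and 702 bp after it. This gives the 98 bp gained, all exonic, and the 95 bp lost upstream. The same 9 of 13 transcript starts were inside the peak in both conditions, and the covered share of the promoters was 22.7% and 22.8%. The difference at Irf7 was thus in fold enrichment, −log10 q and a shift of the edges by under 100 bp, and hardly in presence or coverage. The nearest H3K27me3 peak was 23.7 kb from the principal start in wt and 22.9 kb in wt+TNFα.

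Irf9 (chr14:55603571-55610030, + strand), which acts downstream of the type I interferon receptor, had the weakest H3K4me3 peak of the members. Its fold enrichment was 4.67 in wt, above 0.736% of its list, and 7.49 in wt+TNFα, above 8.32%, a ratio of 1.61 that 10.2% of pairs exceeded. The width was 964 bp in wt (chr14:55603538-55604501) and 846 bp in wt+TNFα (chr14:55603754-55604599), a ratio of 0.878. With −log10 q of 12.4 and 22.0, above 1.87% and 7.31% of the lists, it was among the least significant peaks called.

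The Irf9 peak moved downstream, as that of Irf7 did. It lost 216 bp upstream of the principal start, with the start of Irf9-203, and gained 98 bp downstream, with the starts of Irf9-204 and Irf9-205. The principal start, of Irf9-202, was covered in both conditions. The covered share was 15.4% in wt and 13.5% in wt+TNFα. These shifts are within 216 bp at either edge and rest on a weak peak.

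Irf1 (chr11:53770014-53778374, + strand), which is induced by interferon-γ and, through NF-κB, by TNFα, carried H3K4me3 over 9 of its 10 transcript starts in both conditions. The peak was 1730 bp wide in wt (chr11:53769768-53771497) and 2237 bp in wt+TNFα (chr11:53769687-53771923), and the fold enrichment was 33.8 and 34.6. The width ratio of 1.29 was exceeded by 10.2% of pairs and the fold enrichment ratio of 1.02 by 57.0%. The wider peak came from 426 bp gained in an intron and 81 bp upstream. Only 93 of these bases fall in the promoters, so the covered share was 38.5% in wt and 40.5% in wt+TNFα, while the covered share of the gene body was 17.7% and 22.8%. With promoters of 2000 bp on each side it was 24.2% and 31.3%.

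Irf2 (chr8:46739732-46847458, + strand), the antagonist of Irf1, had the strongest H3K4me3 peak of the family. It was 4279 bp wide in wt (chr8:46738357-46742635) and 4679 bp in wt+TNFα (chr8:46738341-46743019), with a fold enrichment of 46.5 and 51.5. It was wider than 98.6% and 98.7% of its lists, and Gm16675 also starts inside it. The width ratio of 1.09 was exceeded by 40.5% of pairs and the ratio of the fold enrichments by 45.6%, so both lay near the middle of all pairs. Its promoter windows were covered to 26.8% in both conditions, since the added bases lie farther than 1000 bp from a start. Of its 11 transcripts, 5 start over 50 kb downstream and had no peak at the start.

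Irf3 (chr7:44997648-45002848, + strand), which is activated by phosphorylation after viral nucleic acids are sensed, had a peak of 2276 bp in wt (chr7:44996676-44998951) and 2367 bp in wt+TNFα (chr7:44996655-44999021). The fold enrichment was 34.4 in wt and 30.6 in wt+TNFα, the one member with a ratio under 1 (0.888), and 24.5% of pairs had a lower ratio. The covered share was 39.7% and 41.2%. Bcl2l12 starts inside the same peak, so the H3K4me3 here cannot be told apart between both genes. Of the 7 peaks, those of Irf1, Irf2 and Irf3 were above the median −log10 q of their list in both conditions, and those of Irf5, Irf7, Irf8 and Irf9 were below it in both.

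Irf4 (chr13:30749226-30766976, + strand), which directs plasma cell and T cell programs with partners such as BATF, was the member without H3K4me3. The nearest H3K4me3 peak was 88.8 kb from its principal start in wt and 88.7 kb in wt+TNFα. All 3 of its transcript starts and 100% of its promoter bases lay under H3K27me3 in both conditions. In wt the peak was 7681 bp wide (chr13:30744710-30752390), with a fold enrichment of 3.21 and −log10 q of 4.87. In wt+TNFα it was 46390 bp wide (chr13:30738581-30784970), with 2.54 and 4.73, and wider than 99.2% of its list.

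The wide peak spans 6 peaks of the wt list: that at the promoter and 5 more, of 932 to 2446 bp, with fold enrichments of 1.94 to 2.43 and −log10 q of 0.392 to 1.64. The gene body of Irf4 was covered to 40.0% in wt and 100% in wt+TNFα. As the promoters were already fully covered in wt, no H3K27me3 was gained there by the definition used. The number of members with H3K27me3 gained was 0 of 8, where 20.6% of protein-coding genes gained some. The list with the wide peak is also the one that holds 60540 peaks, against 30594 in wt, and whose name alone mentions no spike-in. The part of these differences between the lists in the width at Irf4 was not tested.

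The other 6 members had no H3K27me3 on the gene body or the promoters in either list. The distance from the principal start to the nearest H3K27me3 peak in wt and wt+TNFα was 25.2 and 27.3 kb for Irf1, 251 and 22.5 kb for Irf2, 46.2 and 23.5 kb for Irf3, and 69.7 and 14.3 kb for Irf9. For all of them but Irf1 the nearest peak was closer in wt+TNFα, the list that covers more of the genome.

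The cell type of the organoids was checked with marker promoters. H3K4me3 was found at 11 of 11 epithelial markers in wt and 10 of 11 in wt+TNFα, and H3K27me3 at 0 of 11. The exception was Krt20, a keratin of mature colonocytes, whose promoters were covered to 22.0% in wt and listed with no peak in wt+TNFα. Its wt peak was weak, with a fold enrichment of 6.21 beside a list median of 24.6. None of 11 blood lineage, 7 fibroblast and smooth muscle and 3 endothelial markers had H3K4me3 in either list, and H3K27me3 lay at 6, 5 and 2 of them in wt and at 7, 5 and 3 in wt+TNFα. Lyz2, a lysozyme of myeloid cells, and Pecam1, an endothelial adhesion molecule, had H3K27me3 in wt+TNFα alone (100% and 52.7% of their promoters), and Nkg7 (24.8% and 100%), Vim (60.7% and 100%), Pdgfra (86.6% and 100%) and Col1a2 (44.2% and 53.3%) in both conditions. Of protein-coding genes, 9.004% had H3K27me3 in wt+TNFα alone and 1.21% in wt alone. The fold enrichment in wt+TNFα was 2.13 at Lyz2 and 1.91 at Pecam1, beside a list median of 1.901. Of the 11 epithelial markers, 4 gained and 7 lost some H3K4me3, beside 40.9% and 21.1% of protein-coding genes. After Krt20, the largest changes in covered share were at Epcam (56.1% and 67.5%) and Krt8 (73.1% and 82.1%), and Cdx2 (65.6% and 58.7%) was covered less in wt+TNFα. Irf4, without H3K4me3 and under H3K27me3, had the state of 6 of 11 blood lineage markers in wt and 7 of 11 in wt+TNFα, and the others had neither mark. Irf8 and Irf5 carried H3K4me3 in cultures where none of the 11 had it.

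The rest of the interferon pathway was compared by lists of genes ordered by role. Of 6 receptors, 5 had H3K4me3 in both conditions and 1, Ifnar2, a subunit of the type I interferon receptor, also had H3K27me3. Ifnar2 differed in the same directions as Irf5: its promoters were under H3K27me3 to 47.7% (wt) and 4.57% (wt+TNFα), with 19.0% and 24.3% for H3K4me3. The largest other H3K4me3 changes among the receptors were at Il10rb (63.0% and 72.4%) and Ifnlr1 (72.0% and 76.8%), which form the interferon-λ receptor of epithelia.

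All 6 Janus kinases and STATs, which carry the signal to Irf9, had H3K4me3 and no H3K27me3 in both conditions. Among their largest changes were those at Jak1 (20.4% in wt and 22.9% in wt+TNFα) and Stat2 (12.4% and 14.5%). Of 16 sensors, adaptors and kinases that lead to Irf3, Irf5 and Irf7, 15 had H3K4me3 in both conditions and none had H3K27me3. Some H3K4me3 was gained at 11 and lost at 7 of the 16, beside 40.9% and 21.1% of protein-coding genes, and the median covered share was 32.0% in wt and 31.5% in wt+TNFα. The 3 largest changes were at Irak4, Dhx58 and Ifih1, and Ticam1 (61.6% and 58.1%) was covered less in wt+TNFα. Irak4, a kinase next to MyD88, was covered to 68.9% in wt and 81.2% in wt+TNFα, Dhx58 to 7.17% and 12.8%, and Ifih1, the RNA sensor MDA5, to 33.4% and 37.5%.

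Of 31 interferon-stimulated effectors, which IRFs control, 15 had H3K4me3 in wt and 15 in wt+TNFα, near the 50.5% and 51.2% of protein-coding genes. Ifit2 (19.4%) and Ifi27 (8.57%) had a peak in wt+TNFα alone, and Gbp2 (20.0%) and Xaf1 (19.5%) in wt alone, where 1.49% and 0.744% of protein-coding genes had one in 1 list alone. H3K27me3 lay at 1 of 31 in wt (Gbp3) and at 6 of 31 in wt+TNFα, below the 21.7% and 29.5% of protein-coding genes. Some H3K27me3 was gained at 6 of 31, near the 20.6% of protein-coding genes that gained some, so this count of gains is not particular to the effectors. A peak in wt+TNFα alone was seen at 5 of 31, above the 9.004% of protein-coding genes with one. The 5 with a peak in wt+TNFα alone were Usp18, which restrains interferon signaling (46.6% of its promoters), Socs3, an inhibitor of STAT3 (27.8%), and the 2′-5′-oligoadenylate synthetase genes and their relative Oas2 (24.7%), Oasl2 (19.0%) and Oas3 (17.3%). Their fold enrichments in this order were 2.07, 2.87, 2.04, 1.94 and 1.97, beside a median of 1.901 in the wt+TNFα list. All but that of Socs3 were thus near the median.

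None of 10 interferon ligand genes had H3K4me3. H3K27me3 lay at 4 in wt and 5 in wt+TNFα, with Ifnb1 covered to 22.4% in wt and 100% in wt+TNFα and Ifna2 to 0% and 47.3%. The wider cover at Ifnb1 came with a lower fold enrichment, 2.22 in wt and 1.996 in wt+TNFα. At Ifna2 it was 1.92 in wt+TNFα. The list medians were 2.102 in wt and 1.901 in wt+TNFα. Of 7 partners of IRFs, the corepressors Irf2bp1, Irf2bp2 and Irf2bpl had H3K4me3 in both conditions, and Spi1 (39.1% in wt and 100% in wt+TNFα), Batf (100% and 100%) and Batf3 (90.5% and 100%) had H3K27me3. The covered shares of Irf2bp1 were 63.5% and 58.1%, and those of Irf2bpl 68.7% and 69.3%. Spib, the remaining gene of the list, had neither mark in either condition. Irf4 had the state of Spi1, Batf and Batf3, H3K27me3 alone, which 16.5% of protein-coding genes had in wt and 21.8% in wt+TNFα. Irf2 had the state of the 3 corepressors, H3K4me3 alone. So did Irf1, Irf3, Irf7, Irf8 and Irf9, and 45.3% of protein-coding genes in wt and 43.6% in wt+TNFα.

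Over the 4 covered shares (both marks in both conditions), the pathway genes nearest to Irf4 among 76 were Batf, Ifna1 and Ifna4, at a distance of 0 points, and Ifna5 had the same values. The nearest to Irf5 were Gbp3 at 27.4 points, Ifnar2 at 34.2 points and Usp18 at 63.4 points. No pathway gene came close to Irf5 in all 4 lists, since Gbp3 had no H3K4me3 and its H3K27me3 was 43.4% in wt and 42.9% in wt+TNFα.

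**Figure D4:**
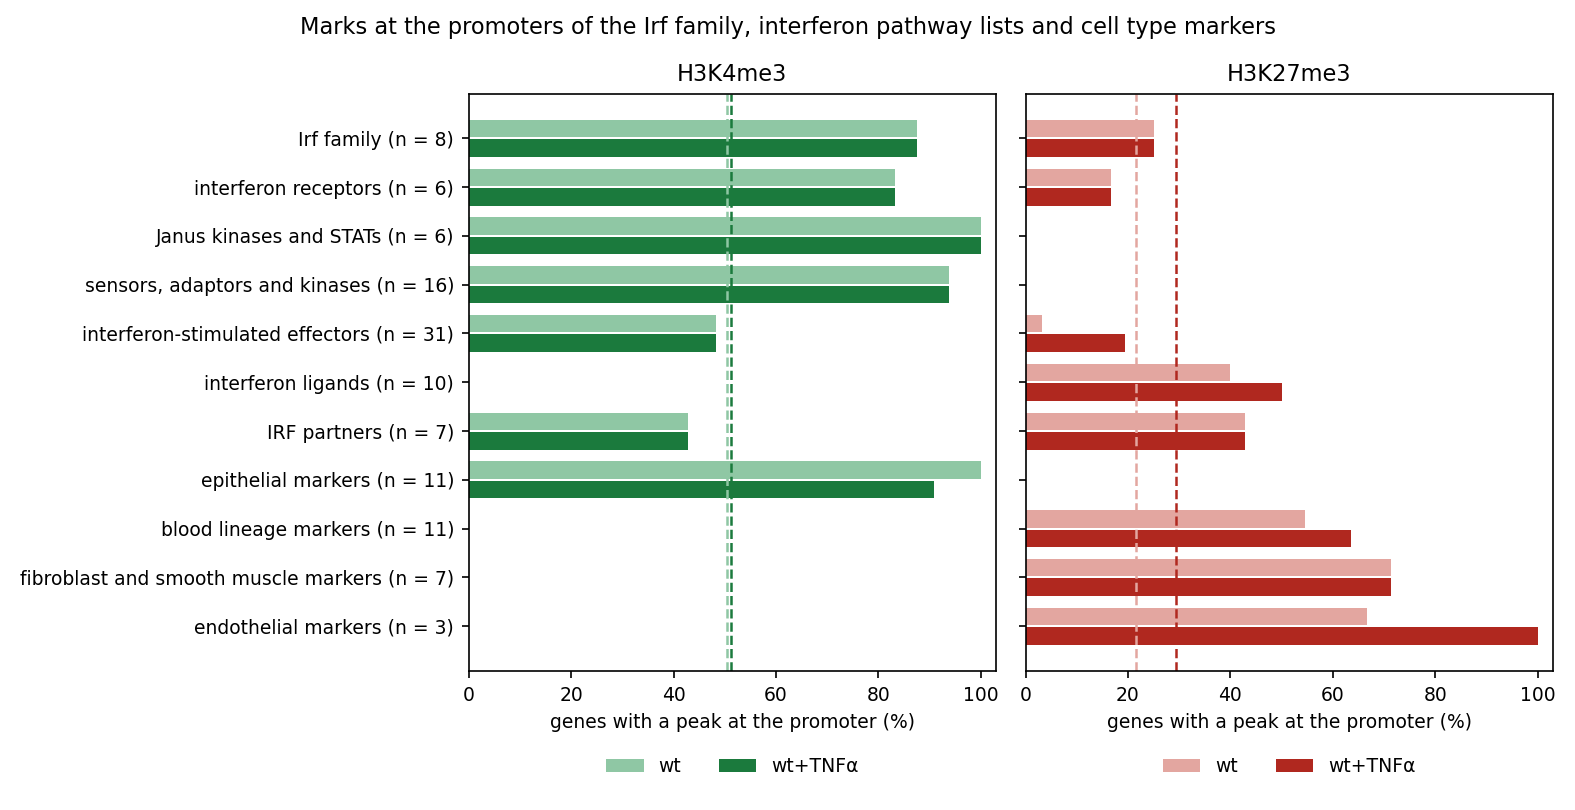
Percent of genes with an H3K4me3 peak (left, green) or an H3K27me3 peak (right, red) at the promoter in the IRF family, 6 interferon pathway lists and 4 marker lists, with light bars for wt, dark bars for wt+TNFα, and dashed lines for all protein-coding genes in the same colors. All kinases and STATs, most sensors and 7 of 8 IRF genes have H3K4me3, no ligand and no blood marker has it, and H3K27me3 lies at 4 and 5 of 10 ligands and at 6 and 7 of 11 blood markers, where 21.7% and 29.5% of protein-coding genes have it.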

How the data were processed

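ChIP-seq of H3K4me3 and H3K27me3 was available for wt and wt+TNFα mouse colonic organoids, grouped by the sample labels, and the 4 deposited peak lists were used. Per the methods, the authors used fastp for trimming, bwa-mem (2.2) for alignment to GRCm38/mm10 and SAMtools (1.11) to drop duplicates. They left out blacklisted regions and ran MACS2 with the input as control. Version 2.1.0 of MACS2 is named in the methods and the submitters' processing notes, and another version in the reporting summary. The deposited fold enrichment is a ratio that the authors computed separately for each library, and the deposited p-value and q-value are given as −log10. The deposited display score was not used. The lowest −log10 q was 0.302 in the wt H3K27me3 list and 0.747 in that of wt+TNFα, with medians of 0.779 and 1.34. Both lists thus hold weak peaks, and their lower limits differ. A spike-in is mentioned in the name of every list but that of wt+TNFα H3K27me3, and the methods do not name one. The study lists more H3K4me3 and input reads for wt+TNFα than for wt, and whether this bears on widths was not tested.

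Peaks were converted to 1-based coordinates and compared by base with Python 3.11.15 and numpy 2.4.6, and plots used matplotlib 3.10.9. Genes and transcript starts came from GENCODE (141767 transcripts, all types), and the principal start is that of the APPRIS principal transcript. Peaks were paired one to one where each overlapped exactly 1 peak of the other condition. In simulated lists at 2000 genes, some with a planted change and others with none, the steps returned the planted outcome in 100%. This checks the comparison of intervals and not the peak calling. No test was possible with 1 library per condition and mark. The members, lists and settings were chosen with earlier results of these data known. All 8 members are named. From the lists, genes with a peak in 1 condition alone, up to 3 with the largest change in covered share per mark, and the 3 nearest to Irf4 and Irf5 are named, and Batf, Spib, Ifna5, Cdx2, Ticam1, Irf2bp2 and Gbp3 were also named after their values were seen. Some genes under this rule are not reported here. A planned comparison of the members' proteins was not run.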

Additional observations from a re-analysis of the deposited data

How the results depend on the processing

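Counts of members were recomputed under 10 alternatives, 9 planned and 1, starts of protein-coding transcripts alone, chosen after the data were seen. Of 76 such counts 67 stayed within 1.5 times the reported one. With 1 start per gene, 0 members lost H3K27me3 in place of 1 (Irf5), because the lost stretch lies at downstream starts. With an overlap of at least 200 bp, H3K4me3 was gained at 1 member (Irf5) in place of 5, and 26.0% of the protein-coding genes with a gain reached this limit. With the stronger peaks of each list alone (−log10 q above its median), H3K4me3 was present at 3 members in wt and 3 in wt+TNFα (Irf1, Irf2 and Irf3), gained at 2 (Irf1 and Irf3) and lost at 0. With whole peaks subtracted, H3K4me3 was gained at 0 and lost at 0, and H3K27me3 lost at 0. Of 56 differences in covered share that are not 0 as reported, 35 stayed within 1.5 times the reported value and 21 moved further, 6 of them to 0, and none changed sign. The other 72 are 0 as reported, and 71 of them stayed 0. The exception was H3K4me3 at Irf2 with promoters of 2000 bp on each side (0.0917 points). The covered share was not recomputed for the overlap minimum or whole peaks, which do not enter it.

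A peak list records where signal passed a threshold, not its level elsewhere, and edges move with depth and background. With 1 library per condition and mark, the spread between cultures is unknown. Transcript amounts were not analysed here, so the marks are not set beside expression.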

Other observations

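The surroundings of the IRF genes, 50 kb on each side of the principal start, differed in how much H3K27me3 they held. In wt the mark covered 26.1% of this stretch at Irf5, 16.9% at Irf4, 13.0% at Irf8, 10.4% at Irf1, 5.48% at Irf7 and 3.76% at Irf3, where the median over 20779 autosomal protein-coding genes was 1.65%. In wt+TNFα it covered 69.2% at Irf4, 42.7% at Irf5, 32.2% at Irf8, 15.9% at Irf3, 12.6% at Irf1 and 6.45% at Irf7, with a median of 6.16%. Irf5 therefore lay in surroundings with more H3K27me3 in wt+TNFα, while the peak on its promoters was narrower. At Irf8 the surroundings also held more of the mark in wt+TNFα, but no H3K27me3 peak lay on the gene, and the nearest was over 24 kb from the principal start.

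Irf2 and Irf9 had no H3K27me3 within this stretch in wt, and 2.32% and 0.606% in wt+TNFα. H3K4me3 covered the most around Irf9 (11.0% in wt and 12.0% in wt+TNFα), Irf7 (8.72% and 9.57%) and Irf3 (8.21% and 9.42%), and the least around Irf4 (0% in both). The median was 1.74% in wt and 1.91% in wt+TNFα. Irf9 and Irf7, whose own peaks were under 1000 bp wide, had more H3K4me3 around them in wt than 98.3% and 96.0% of these genes.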
